A study of Mus musculus with 6 samples.

Results

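The genes of the proteasome other than the interferon-inducible catalytic subunits were followed in mouse macrophages. Members were the genes whose symbol begins with Psma to Psmg and a digit, without Psmb8, Psmb9 and Psmb10, which left 47 of the 16906 genes in the deposited gene table. They comprised 16 genes of the core particle (Psma and Psmb), 20 of the regulatory particle (Psmc and Psmd), 5 activators (Psme) and 6 others. The 6 others were Psmf1, Psmg1 to Psmg4 and Psmc3ip; Psmc3ip matches by name only, being a meiotic recombination factor and no proteasome subunit. RNA came from wild-type C57BL/6 bone-marrow-derived macrophages (BMDMs), cultured for 7 days in medium with 10% serum and given macrophage colony-stimulating factor at 10 ng/ml. The tested cells, labelled cs6h_Co12h and called stretched here, received exosomes at 100 µg/ml for 12 h from epithelial cells that had been stretched in cycles for 6 h. The cells labelled ctrl, called control here, received the same dose of exosomes for 12 h from epithelial cells without cyclic stretch. Both groups thus received epithelial exosomes, and each group had 3 libraries; nothing in the labels says whether these came from separate animals, so the p-values rest on the spread among libraries alone, and that spread may be technical.

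The proteasome is the main protease for ubiquitin-tagged proteins in the cytosol and nucleus. Its barrel-shaped core is built of outer rings of alpha subunits, which gate the channel, and inner rings of beta subunits, of which Psmb5, Psmb6 and Psmb7 hold the peptide-cutting sites. The regulatory particle caps the barrel: its ATPases unfold the substrate and its lid removes the ubiquitin. Psme proteins are alternative caps that open the core without ubiquitin recognition, and Psmg proteins chaperone assembly of the core. In macrophages exposed to interferon, Psmb8, Psmb9 and Psmb10 replace the constitutive catalytic subunits and change the peptides offered to T cells.

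The libraries held 16984561 to 17625991 estimated counts. Levels compared between libraries are TMM-normalised counts relative to library size (CPM), and levels compared between genes are FPKM, which divide by gene length. Log2 fold changes are stretched over control, with a standard error (SE), and a gene was called where the p of edgeR's quasi-likelihood test, adjusted over all 12892 genes tested, was under 0.05; calls by another tool or setting are named as such. Control 3 stood apart from the other two control libraries: across genes its log2 CPM correlated with those of control 1 and control 2 at r = 0.958 and 0.962, while control 1 and control 2 correlated with each other at 0.994. All 10 macrophage markers, such as Adgre1 and Csf1r, were measured, with a summed level of 19486 to 23409 CPM in stretched libraries. The sum was 28811 and 22233 CPM in control 1 and control 2, and 31387 CPM in control 3, where 5 of the 10 stood above both. Lyz2 alone had 14318, 10307 and 10769 CPM in stretched libraries, against 17759, 11425 and 21027 CPM in control libraries. Of these markers, Mertk was called higher (adjusted p = 0.0479) and C1qa lower (adjusted p = 0.0460). The summed level of 10 neutrophil markers was 4226 to 7757 CPM in stretched libraries, 3596 and 5258 CPM in control 1 and control 2, and 13344 CPM in control 3, where all 10 stood above both other controls. The 6 monocyte markers summed to 1085 to 1541 CPM in stretched libraries, 495 and 610 CPM in control 1 and control 2, and 1965 CPM in control 3, and no marker of either list was at 0 in all libraries. All 6 markers each of mast cells and stroma, and 5 of 6 of lymphocytes, were also higher in control 3 than in both other controls. The stroma sum was 5880, 4641 and 6699 CPM in stretched 1 to 3, against 3858, 3529 and 4837 CPM in control 1 to 3. It was thus higher in stretched 1 and stretched 3 than in control 3. The mast cell and lymphocyte sums of all stretched libraries lay between control 3 and the other controls. The share of all genes above both other controls in control 3 was not counted. Of the epithelial markers, only Epcam and Cdh1 were expressed enough to be tested. Epcam had 36.9, 31.2 and 13.4 CPM in stretched libraries, against 8.54, 12.0 and 9.63 CPM in control libraries (adjusted p = 0.0440), and Cdh1 overlapped between the groups (log2 fold change 0.14). The part of these cells in the results below was not tested, and in bulk RNA fewer cells of a type and less RNA per cell cannot be told apart.

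Of the 47 members, 46 were expressed enough to be tested, and 1 of them, the core assembly chaperone Psmg4, was called lower by edgeR. No member was called higher by edgeR, while DESeq2 on the same libraries called Psmd8 higher and 4 members lower (10.8% and 9.89% of all genes). Over all genes tested, 6.55% were called higher and 5.38% lower, so the member counts stood at or under that background. At an unadjusted p under 0.05, 2 members were higher (Psmb6 and Psmd8) and 5 were lower, as were 2128 and 1955 of the 12892 genes tested. The fitted log2 fold change was above 0 for 11 members and below 0 for 35, with a median of -0.20, against -0.00 over all genes tested. The 3 stretched libraries all lay above the 3 control libraries for 3 members (Psmb6, Psmd8 and Psme4) and all below them for 5 (Psmc5, Psmd6, Psme3, Psmg3 and Psmg4). Over all genes tested, 18.5% separated upwards and 18.2% downwards. Psmb11, the beta subunit of the thymus, was not tested: it had 1 count in 1 stretched library and 0 in the others.

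**Figure D1:**
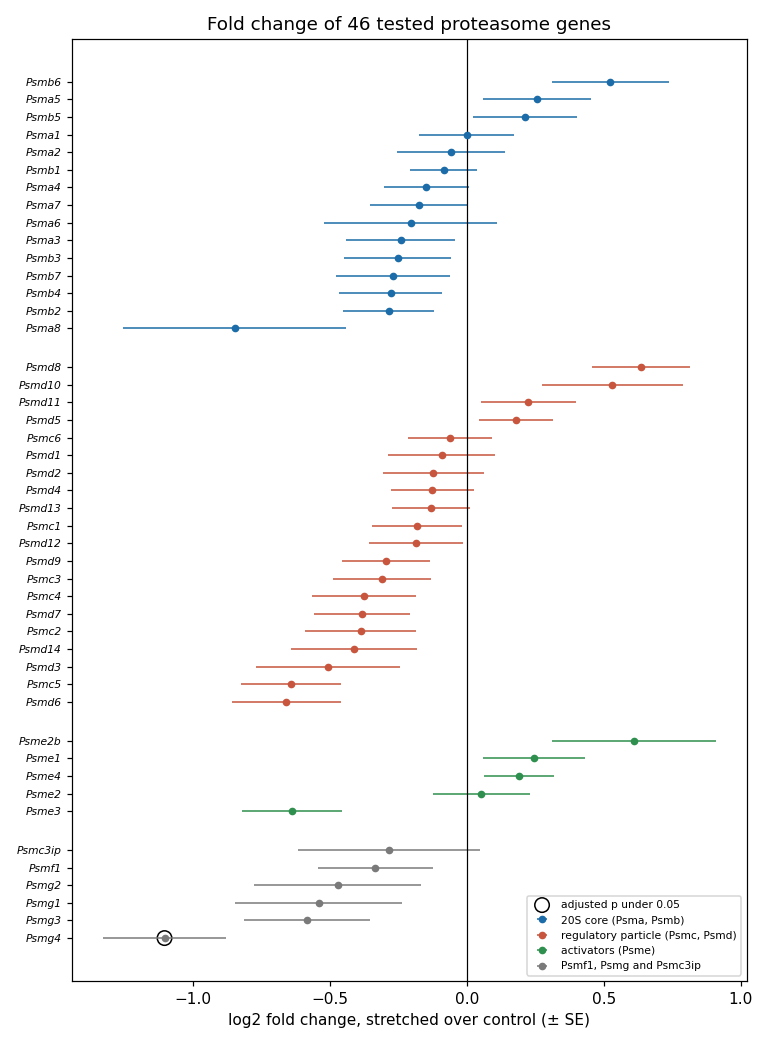
Log2 fold change of stretched over control for each of the 46 tested members (points, bars ± SE), grouped as core, regulatory particle, activators and others and ordered by fold change within each; the ringed point is the gene called. Psmg4 lies farthest to the left at -1.11 and Psmd8 farthest to the right at 0.64, and 35 points lie below 0.

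The promoters of 4 members are shown because these genes stand for the different directions seen: Psmg4, the member called lower, Psme3, a nuclear activator that was low in every stretched library, and Psmd8 and Psmb6, a lid and a catalytic subunit that were high in every stretched library. Each sequence runs 5′ to 3′ on the gene's strand over a window of 300 bases, 250 before the RefSeq start and 50 after it, in build GRCm38.p6. The genes lie at chr13:34162964-34178172 (Psmg4, gene ID 69666), chr11:101316213-101323537 (Psme3, gene ID 19192), chr7:29174187-29180673 (Psmd8, gene ID 57296) and chr11:70525324-70527858 (Psmb6, gene ID 19175). The windows are chr13:34162714-34163013 (plus strand) for Psmg4, chr11:101315963-101316262 (plus strand) for Psme3, chr7:29180624-29180923 (minus strand) for Psmd8 and chr11:70525107-70525406 (plus strand) for Psmb6. The Psmb6 window is set on a start a little inside the gene span given above, and the other windows on the start of theirs. Capitals mark matches, on either strand, to 5 motifs: TGACNNNGC, the core of the antioxidant response element bound by NRF factors; CCAAT, a box bound by the factor NF-Y; CCGGAAG, a core bound by factors of the ETS family; the E-box letters CACGTG; and the TATA box, searched as TATAAA.
Psmg4: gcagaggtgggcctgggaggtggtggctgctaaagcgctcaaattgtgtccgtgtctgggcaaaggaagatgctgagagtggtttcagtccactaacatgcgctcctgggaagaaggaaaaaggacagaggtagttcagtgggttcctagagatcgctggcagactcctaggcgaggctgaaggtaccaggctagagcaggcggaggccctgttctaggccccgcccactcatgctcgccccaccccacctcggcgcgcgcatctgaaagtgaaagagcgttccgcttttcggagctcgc
Psme3: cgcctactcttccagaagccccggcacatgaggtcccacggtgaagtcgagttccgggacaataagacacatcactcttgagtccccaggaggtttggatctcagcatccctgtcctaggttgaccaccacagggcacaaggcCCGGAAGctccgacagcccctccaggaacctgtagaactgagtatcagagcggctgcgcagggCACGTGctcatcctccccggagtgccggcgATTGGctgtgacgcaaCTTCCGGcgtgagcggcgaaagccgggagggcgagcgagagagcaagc
Psmd8: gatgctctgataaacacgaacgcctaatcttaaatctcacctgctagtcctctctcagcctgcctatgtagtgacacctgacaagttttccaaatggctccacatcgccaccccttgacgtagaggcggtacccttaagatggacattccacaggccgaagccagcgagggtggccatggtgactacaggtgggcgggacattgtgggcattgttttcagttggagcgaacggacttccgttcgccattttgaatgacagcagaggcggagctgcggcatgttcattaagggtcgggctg
Psmb6: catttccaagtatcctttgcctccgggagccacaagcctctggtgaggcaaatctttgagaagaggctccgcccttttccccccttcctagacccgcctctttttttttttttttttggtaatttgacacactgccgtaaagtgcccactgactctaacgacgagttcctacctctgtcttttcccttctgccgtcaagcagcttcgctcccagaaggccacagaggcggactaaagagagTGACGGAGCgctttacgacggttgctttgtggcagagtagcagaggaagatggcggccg
Psmg4 and Psmd8 held none of the 5 motifs in these windows. Psme3 held CCGGAAG at position -107 and its reverse complement at position 3, an E-box at position -44 and a reversed CCAAT at position -14, counted from the start site. Psmb6 held TGACGGAGC at position -9 from the start its window is set on, which is within the gene span given above. Psmb5, another catalytic subunit, held TGACGTCGC at position -47.

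RefSeq promoter windows were read for 39 of the 47 members. Those without one here were Psma8, Psmb1, Psmb2, Psmb7, Psmc3, Psmd3, Psmd7 and Psmg2. Windows on chromosome 18, where Psma8 and Psmg2 lie, were left out for members, so whether these genes have one was not read. No such rule was applied to the tested genes. A gene counted as holding a motif where any of its windows matched. The 39 members had 42 windows and the 10277 tested genes 13123, so the shares below rest on unlike numbers of windows per gene. The 39 include Psmb11, which was not tested. The antioxidant core TGACNNNGC was present in 6 of the 39 (15.4%), against 17.0% of the 10277 tested genes with a window. These 6 were Psmb5, Psmb6, Psmc6, Psmd9, Psmd12 and Psme4. CCAAT was in 14 members (35.9%, against 42.9% of tested genes), TATAAA in 3 (7.69%, against 8.96%) and CACGTG in 3 (7.69%, against 11.6%). CCGGAAG was in 15 members (38.5%), against 19.7% of tested genes; this motif and the E-box were chosen after the other 3 had been counted. A match is a description of the letters, and no match says nothing of a factor's binding.

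Among the alpha subunits of the core ring, all of Psma1 to Psma7 were well expressed, and none was called by edgeR. Their median log2 fold change, with Psma8, was -0.16, with 1 member above 0 and 7 below. Psma5, which forms part of the outer ring, had 93.9, 116 and 122 CPM in stretched 1 to 3, against 108, 100 and 69.0 CPM in control 1 to 3 (log2 fold change 0.26, adjusted p = 0.408). The groups overlapped, since control 1 lay above stretched 1. Psma1 to Psma4 and Psma7 had 80.5 to 134 CPM in stretched libraries, against 110 to 147 CPM in control 1 and control 2 and 75.4 to 97.3 CPM in control 3. Psma8, the alpha subunit of the testis proteasome, was near the detection limit at 0.843, 0.953 and 1.15 CPM in stretched libraries, against 2.13, 2.24 and 0.958 CPM in control libraries (log2 fold change -0.85 ± 0.41 SE, adjusted p = 0.196). Its control 3 value sat among the stretched values.

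The 3 constitutive catalytic subunits went different ways, and none passed the test. Psmb6, which cuts after acidic residues, had 169, 222 and 147 CPM in stretched libraries, against 134, 144 and 96.7 CPM in control libraries (log2 fold change 0.52 ± 0.21 SE, adjusted p = 0.140). Every stretched library was above every control library for Psmb6. Psmb5, which cuts after hydrophobic residues and is the target of bortezomib, had 101, 102 and 92.5 CPM in stretched libraries, against 99.6, 94.1 and 61.8 CPM in control libraries (log2 fold change 0.21 ± 0.19 SE, adjusted p = 0.483), and the groups overlapped. Psmb7, which cuts after basic residues, had 78.2, 74.9 and 76.9 CPM in stretched libraries, against 107, 108 and 63.4 CPM in control libraries (log2 fold change -0.27 ± 0.21 SE, adjusted p = 0.408). For Psmb7 the stretched libraries were close to one another and lay between control 3 and the other two controls. The structural subunits Psmb1 to Psmb4 all had log2 fold changes below 0, with a median of -0.27, and none was called by edgeR. The smallest p among them belonged to Psmb2 (log2 fold change -0.29, adjusted p = 0.273) and Psmb4 (log2 fold change -0.28, adjusted p = 0.343).

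**Figure D2:**
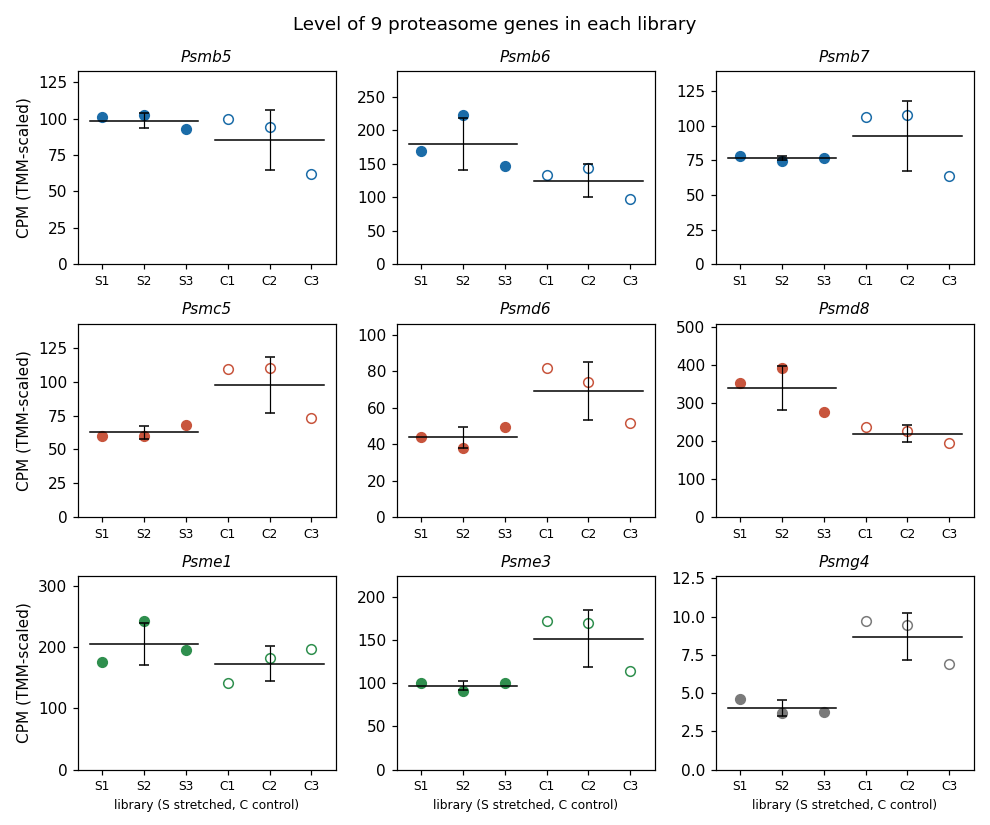
CPM (linear axis from 0) in each library for 9 members; filled points are stretched 1 to 3 (S1 to S3), open points control 1 to 3 (C1 to C3), and bars the mean ± SD. Psmd8 and Psmb6 show all stretched points above the control points, and Psmg4, Psmc5, Psmd6 and Psme3 show them below.

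All 6 ATPases of the regulatory particle, Psmc1 to Psmc6, had log2 fold changes below 0, with a median of -0.34, and none was called by edgeR. Psmc5 had 59.6, 59.6 and 68.1 CPM in stretched libraries, against 109, 110 and 73.3 CPM in control libraries (log2 fold change -0.64 ± 0.18 SE, adjusted p = 0.0594 by edgeR and 0.0174 by DESeq2). The groups did not overlap, but control 3 was nearer to stretched 3 than to the other controls. Psmc2 had 89.0, 101 and 96.7 CPM in stretched libraries, against 141, 146 and 88.1 CPM in control libraries, so that control 3 was the lowest library. Psmc4 had a log2 fold change of -0.38 (adjusted p = 0.215). The base subunits Psmd1 and Psmd2, which scaffold the particle, and Psmd4, a ubiquitin receptor, also lay below 0, with a median of -0.12 and no call by edgeR. Psmd2 had a log2 fold change of -0.12 (adjusted p = 0.685) and Psmd4 of -0.13 (adjusted p = 0.604).

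The lid held the members with the widest spread, from -0.66 for Psmd6 to 0.64 for Psmd8, with a median of -0.29 over 8 genes, 2 above 0 and 6 below. Psmd8, whose yeast counterpart joins the lid last, had 352, 391 and 277 CPM in stretched libraries, against 237, 225 and 194 CPM in control libraries (log2 fold change 0.64 ± 0.18 SE, adjusted p = 0.0577 by edgeR and 0.00995 by DESeq2). The lowest stretched library exceeded the highest control library. Psmd6 had 43.7, 38.0 and 49.3 CPM in stretched libraries, against 81.7, 74.2 and 51.4 CPM in control libraries (log2 fold change -0.66 ± 0.20 SE, adjusted p = 0.0687 by edgeR and 0.0256 by DESeq2). Its stretched libraries were all lower than its controls, with control 3 just above stretched 3. Psmd14, the enzyme that removes the ubiquitin chain, had 61.1, 61.8 and 71.2 CPM in stretched libraries, against 99.6, 102 and 56.5 CPM in control libraries. For Psmd14 control 3 was the lowest of all 6 libraries. Psmd3, a lid scaffold, also had its lowest value in control 3, at 101, 93.2 and 111 CPM in stretched libraries, against 181, 166 and 86.7 CPM in control libraries. Psmd11, whose level is known to govern proteasome assembly in human stem cells, had 116, 152 and 117 CPM in stretched libraries, against 119, 119 and 90.8 CPM in control libraries, and overlapped. Psmd5, Psmd9 and Psmd10, chaperones that help build the base and are not part of the finished particle, had a median of 0.18. Psmd10 (gankyrin) had 50.4, 63.3 and 35.0 CPM in stretched libraries, against 33.1, 43.2 and 26.6 CPM in control libraries (log2 fold change 0.53 ± 0.26 SE, adjusted p = 0.201), and the groups overlapped. Psmd9 had a log2 fold change of -0.30 (adjusted p = 0.250).

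Among the activators, 4 had log2 fold changes above 0 and 1, Psme3, below, with a median of 0.19, and none was called by edgeR. Psme1 and Psme2, the interferon-inducible subunits of the activator PA28αβ, lie close together at chr14:55578494-55581527 and chr14:55587440-55591101. Psme1 had 175, 243 and 196 CPM in stretched libraries, against 141, 181 and 196 CPM in control libraries (log2 fold change 0.24 ± 0.19 SE, adjusted p = 0.406). Psme2 had 249, 303 and 277 CPM in stretched libraries, against 247, 323 and 230 CPM in control libraries (log2 fold change 0.05 ± 0.18 SE, adjusted p = 0.873). Both overlapped between the groups. Psme3, the PA28γ activator of the nucleus, had 100, 91.5 and 100 CPM in stretched libraries, against 172, 169 and 114 CPM in control libraries (log2 fold change -0.64 ± 0.18 SE, adjusted p = 0.0602 by edgeR and 0.0153 by DESeq2). All stretched libraries lay below all control libraries for Psme3. Psme4 (PA200), an activator with a role in histone degradation, had 108, 131 and 113 CPM in stretched libraries, against 102, 106 and 99.0 CPM in control libraries (log2 fold change 0.19 ± 0.13 SE, adjusted p = 0.349). Its groups separated upwards by a narrow margin; with library size alone as the scaling, where the median of all genes moved to -0.19, its log2 fold change was -0.0082 and that of Psme2 was -0.14. Psme2b, a near-identical copy of Psme2, had 4.03, 4.97 and 3.16 CPM in stretched libraries, against 1.92, 2.79 and 3.25 CPM in control libraries (log2 fold change 0.61 ± 0.30 SE, adjusted p = 0.207). Psme2 and Psme2b were the 2 members with counts that were not whole, and how reads that fit both copies were counted is not given in the sources used here, so their values are uncertain.

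The 4 chaperones of core assembly, Psmg1 to Psmg4, all had log2 fold changes below 0, with a median of -0.56, and 1 of them was called. Psmg4 had 4.63, 3.68 and 3.80 CPM in stretched libraries, against 9.71, 9.46 and 6.92 CPM in control libraries. Every stretched library was below every control library. The log2 fold change was -1.11 ± 0.23 SE, with an adjusted p of 0.0280 by edgeR's quasi-likelihood test; over the 20 alternatives the adjusted p ran from 1.47e-05 to 0.110. Psmg3, its partner in a chaperone pair, had 5.54, 4.36 and 6.10 CPM in stretched libraries, against 9.07, 8.53 and 6.44 CPM in control libraries, again without overlap but without a call. Psmg1, which pairs with Psmg2, had 8.43, 5.58 and 10.1 CPM in stretched libraries, against 15.0, 12.1 and 7.93 CPM in control libraries, and control 3 lay among the stretched libraries. Psmf1, an inhibitor of the core (PI31), had a log2 fold change of -0.33 (adjusted p = 0.314), and Psmc3ip of -0.28 (adjusted p = 0.594).

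Core and regulatory particle had nearly the same median log2 fold change, -0.18 each, with a difference of 0.0074 for core minus regulatory particle. A like difference was taken in each library from the class medians of log2 deviation from the gene mean. Its SD was 0.037 in the group with the larger spread, a spread of single libraries and not of the difference between groups. Without control 3 the median log2 fold changes were -0.34 for the core and -0.34 for the regulatory particle, and the difference was -0.0054. Without control 2 they were -0.074 for the core and -0.10 for the regulatory particle. With library size alone they were -0.36 and -0.37, where the median of all genes was itself -0.19. By library, the summed level of the core was 1516, 1689.5 and 1599.9 CPM in stretched libraries, against 1894, 1903 and 1232 CPM in control libraries. The regulatory particle summed to 2058, 2183 and 2058 CPM in stretched libraries, against 2526, 2511 and 1725 CPM in control libraries. In both classes control 1 and control 2 were the highest libraries and control 3 the lowest, so the stretched libraries lay within the range of the controls. The core thus averaged 1602 ± 86.8 CPM in stretched and 1676 ± 385 CPM in control libraries (SD, n = 3 each). In FPKM, which carry no TMM scaling, it averaged 1755 ± 108 in stretched and 2108 ± 451 in control libraries, and the groups overlapped as well. The median log2 fold change of all genes fitted to FPKM with limma was -0.18. The FPKM ratio of core to regulatory particle was 1.44 ± 0.040 in stretched and 1.40 ± 0.057 in control libraries (SD, n = 3 each), and the groups overlapped. The activators averaged 699 ± 68.6 CPM in stretched and 696 ± 75.8 CPM in control libraries (SD, n = 3 each), at 636, 773 and 689 CPM in stretched libraries, against 664, 783 and 642 CPM in control libraries, and the groups overlapped. Per length, the highest members over all libraries were Psme2 (359 FPKM), Psma6 (255 FPKM), Psme1 (227 FPKM) and Psmd8 (201 FPKM). The 14 subunits of the common core spanned 85.8 FPKM (Psma3) to 255 FPKM (Psma6), and the Psmg chaperones 9.74 to 17.3 FPKM.

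Control 3 was the low control library for nearly all members. It was below both control 1 and control 2 for 44 of the 46 tested members (95.7%), against 46.2% of all genes tested, and the 2 members outside this count were Psme1 and Psme2b. The median log2 ratio of control 3 to the mean of control 1 and control 2 was -0.62 in the core, -0.56 in the regulatory particle and -0.08 in the activators, against -0.03 over all genes tested. Psma6, the highest alpha subunit, had 121 CPM in control 3, against 288 and 285 CPM in control 1 and control 2; it was chosen after its values were seen. The stretched libraries of Psma6, at 200, 222 and 179 CPM, lay between them. For 34 of the 46 members all stretched libraries lay below both control 1 and control 2, against a smaller share of all genes, 3977 of the 12892 tested. The neutrophil and monocyte marker sums given above were highest in control 3. So was the macrophage sum, but Lyz2 alone made up 21027 of its 31387 CPM there. Of the macrophage markers, 5 of 10 stood above both other controls in control 3, while Adgre1, Cd68, Itgam, Fcgr1 and C1qa stood below both. The part of these cell types in the members' values was not tested.

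**Figure D3:**
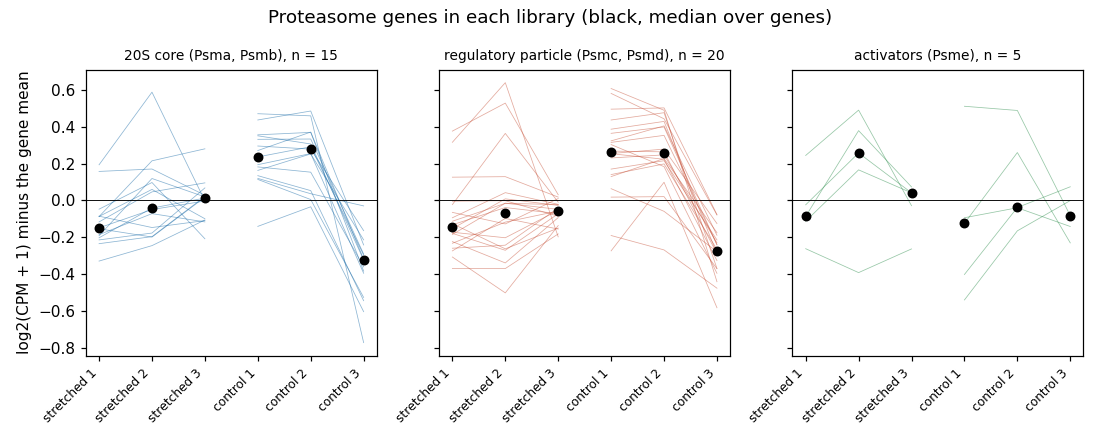
Log2(CPM + 1) of each tested member minus its own mean over the 6 libraries, for the core, the regulatory particle and the activators; thin lines join the libraries of a group for each gene and black points are class medians. Core medians are 0.24 and 0.28 in control 1 and control 2 and -0.32 in control 3, and the stretched medians lie between them.

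The count of members called changed when control 3 was left out. Without it, a choice made with its values known, edgeR called 22 members lower and 0 higher (47.8% lower), against 15.4% of all genes called lower and 16.1% called higher. These were 7 of 15 tested core genes, 10 of 20 of the regulatory particle, 1 of 5 activators and 4 of 6 others. They included Psmb2, Psmb3, Psmb4 and Psmb7 of the beta rings, Psmc2 to Psmc5 of the ATPases, Psmd3, Psmd6, Psmd7, Psmd12 and Psmd14 of the lid, and Psme3. Also lower without control 3 were Psma3, Psma6, Psma8, Psmd9, Psmf1 and Psmg2 to Psmg4. The member median was then -0.38. By edgeR, no member was called in either direction without control 1 or without control 2, and over all genes 88 and 0 were called. By DESeq2, Psmd8 and Psmg4 were called without control 1, with 1288 genes in all, and Psmg4 without control 2, with 1271 genes in all. With control 3 and stretched 3 both left out, 3 members were called higher (Psmd8, Psmd10 and Psme2b) and 24 lower, against 21% and 20.6% of genes. With the replicate number as a block, 0 members were called higher and 1 lower, against 5.86% and 3.16% of genes. The 4 members that DESeq2 called lower with all 6 libraries were Psmc5, Psmd6, Psme3 and Psmg4.

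**Figure D4:**
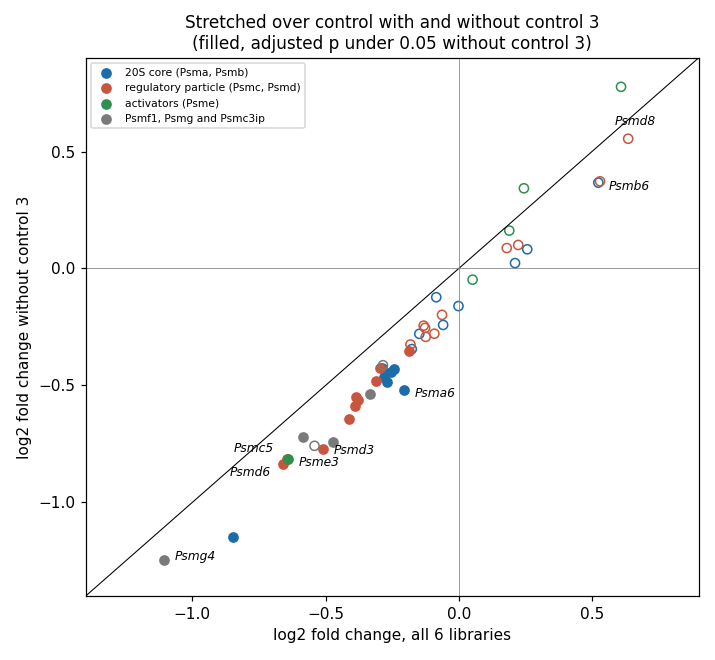
Log2 fold change of each tested member with all 6 libraries (horizontal axis) and without control 3 (vertical axis); filled points had an adjusted p under 0.05 without control 3, open points did not, and the diagonal line marks equal values. The 22 filled points all lie below 0, and Psmg4 lies lowest.

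Genes that work beside these subunits were read from lists of the immunoproteasome, further subunits and assembly factors, the transcriptional control of proteasome genes, shuttle factors and ubiquitin. Of 31 such genes, 0 were called higher and 1 lower by edgeR, against 6.55% and 5.38% of all genes tested. The 1 called was Ubqln4, a shuttle that carries ubiquitinated proteins to the proteasome. Ubqln4 had 38.1, 31.7 and 33.0 CPM in stretched libraries, against 49.7, 49.1 and 55.0 CPM in control libraries (log2 fold change -0.58 ± 0.13 SE, adjusted p = 0.0350, and 0.0586 with the replicate number as a block). Its control 3 value was the highest, unlike that of most subunits. Psmb9, the immunoproteasome counterpart of Psmb6, had 63.3, 97.5 and 84.4 CPM in stretched libraries, against 43.4, 59.0 and 49.1 CPM in control libraries (log2 fold change 0.69 ± 0.20 SE, adjusted p = 0.059, and 0.0397 with the replicate number as a block). All stretched libraries exceeded all control libraries for Psmb9. Psmb8 and Psmb10 had log2 fold changes of 0.33 (adjusted p = 0.245) and -0.10 (adjusted p = 0.766). The FPKM ratio of Psmb9 to Psmb6 was 0.474, 0.550 and 0.725 in stretched libraries, against 0.410, 0.527 and 0.650 in control libraries, and the groups overlapped. The ratios of Psmb8 to Psmb5 and of Psmb10 to Psmb7 overlapped as well. Nfe2l1, the transcription factor that raises proteasome genes when the protease is inhibited, had 297, 258 and 189 CPM in stretched libraries, against 202, 246 and 164 CPM in control libraries (log2 fold change 0.28, adjusted p = 0.417). Adrm1, the ubiquitin receptor of the base, had a log2 fold change of -0.55 (adjusted p = 0.085), and Pomp, the maturation factor of the core, of -0.19 (adjusted p = 0.473). Without control 3, Adrm1, Ubqln4, Ddi2, Vcp, Ube3c, Usp14, Ngly1 and Rad23b were called lower among the 31 genes, and no gene of the lists higher. Over all genes, 15.4% were then called lower and 16.1% higher. Vcp is the segregase that extracts ubiquitinated proteins and Usp14 a deubiquitinase bound to the particle.

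The transcript table of the same libraries held 72 transcripts of members, of which 65 could be tested and 0 were called by edgeR; 6 had an unadjusted p under 0.05, and DESeq2 called 6. Over all 29604 transcripts tested, edgeR called 1, 4567 had an unadjusted p under 0.05, and DESeq2 called 2688, so the members' share of DESeq2 calls was near that of all transcripts. A minor transcript of Psma3 (NM_011184.5), with 3.15% of that gene's CPM, was chosen after its values were seen. It had 0, 0 and 0.174 CPM in stretched libraries, against 5.38, 9.03 and 5.88 CPM in control libraries (adjusted p = 0.107 by edgeR). The 2 RefSeq transcripts of Psmg4 had these values. One (NM_001101430.2), with 67.7% of the gene's CPM over all libraries together, had 1.99, 1.87 and 2.84 CPM in stretched libraries, against 7.99, 7.32 and 4.04 CPM in control libraries. The other (NM_001110515.2) had 2.65, 1.73 and 0.986 CPM in stretched libraries, against 1.90, 2.20 and 2.97 CPM in control libraries, and overlapped; in stretched 1 it was the higher of the pair. How reads were divided between transcripts of a gene is not given in the sources used here, so these splits are estimates.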

How the data were processed

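RNA was measured in 3 stretched and 3 control libraries, each from 1.3 µg of RNA, prepared with the SMARTER mRNA-Seq Library Prep kit as the labels' protocols state. The deposited tables give estimated counts per gene and per transcript, not normalised by the authors, per the file headers. A second column, without a named unit, equals count over effective length and library total and was taken to be the authors' FPKM. GRCm38 and mm10 are the builds in the submitters' processing notes, with the aligner, counter and library strand not given in the sources used here. Coordinates and promoter windows come from RefSeq (GRCm38.p6). The number of sample columns left unused was 0.

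Estimated counts were rounded and tested with edgeR 4.0.16 in R 4.3.3 (quasi-likelihood test, TMM, filterByExpr with a minimum count of 10, Benjamini-Hochberg over all 12892 genes tested, threshold 0.05). The SE was derived from the F statistic. Log2 fold changes were also fitted to the deposited FPKM with limma 3.58.1 (pseudocount 0.1), and counts with DESeq2 1.42.0. In simulated counts for this comparison over 12892 genes, the share found by edgeR was 28 of 100 genes at a 2-fold change and 91 of 100 at a 4-fold change, beside 11 false calls.

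Members were named by role: those past the threshold, or the 2 with the smallest p in a role, plus the catalytic subunits and activators. Psma6, Psmc2, Psmd3, Psmd11, Psmd14, Psmg1 and Psmg3 lie outside that rule and were chosen after their values were seen. The members, roles, lists and alternatives were chosen with earlier results of these data known. The titles share replicate numbers 1 to 3. Deviations of same-numbered libraries from their group means correlated at 0.291, 0.173 and 0.150 across genes. Pairs with different numbers ran from -0.240 (stretched 1 with control 3) to 0.114 (stretched 1 with control 2). The deviations within a group sum to 0, so these values are not independent, and they do not settle whether the libraries were paired. A fit with the number as a block was run as an alternative.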

Additional observations from a re-analysis of the deposited data

How the results depend on the processing

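Psmg4 was lower under all 20 alternatives, but by edgeR it lost its call when any 1 stretched library, control 1 or control 2 was left out; by DESeq2 it kept it. The count of members called higher was 0 with all libraries, 1 with DESeq2, 1 with a filter at a mean of 5 CPM, 3 without stretched 3 and control 3 together, and 0 to 1 with each library left out in turn by edgeR or DESeq2. The count called lower was 1 with all libraries, 4 with DESeq2, 4 with library size alone (10.1% of all genes), 4 with limma on log2(FPKM + 0.1) (9.33% of all genes), and 24 without stretched 3 and control 3 together. With each library left out it was 0 to 22 by edgeR and 1 to 24 by DESeq2. Over all genes, 1538 were called with all libraries, 2673 by DESeq2, and 5355 without stretched 3 and control 3 together. With each library left out the count ran from 0 to 4106 by edgeR and from 1271 to 4501 by DESeq2 (2311 without stretched 3). The activator median of 0.19 was -0.0082 with library size alone and -0.0095 with limma, where the median of all genes was -0.19 and -0.18. Core minus regulatory particle was -0.041 without stretched 3 and control 3 together. Among named members, Psma5 turned to -0.0072 without stretched 3 and control 3 together. Psme2 turned to -0.14 with library size alone, -0.13 with limma and -0.065 without that pair of libraries, and ran from -0.048 to 0.21 with each library left out. Psme4 turned to -0.0082 with library size alone and -0.0095 with limma. Transcripts of members called numbered 6 of 65 by DESeq2, which called 2688 of all 29604, against 0 by edgeR. A tally of named members took in the alternatives other than the DESeq2 fits with a library left out. Of its 319 values, 270 kept direction and side of the threshold, 35 gained a call, 5 lost one and 9 changed sign. The cause of these changes was not tested, and the libraries left out were chosen together after their values were known.

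With the replicate block, 755 genes were called higher and 408 lower, against 844 and 694 without it. Members stayed at 0 higher and 1 lower (Psmg4, adjusted p = 0.0399 by edgeR with the block). Among named members and named genes of the lists beside them, the block changed no call other than those of Psmb9 and Ubqln4. The calls of Mertk, C1qa and Epcam were not read under the block. Genes at a few CPM, such as the Psmg chaperones, rest on fewer counts than the subunits.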
